A study of Mus musculus with 10 samples.

Results

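Ly6c2, Plac8, Fn1, Chil3, Vcan, Anxa1, Ms4a4c, Ms4a6c, S100a4 and Fxyd5 are 10 genes that mouse classical monocytes express, and they were followed here as markers of monocytes in microglial preparations from 2 brain regions. They were picked by name from the 53715 genes counted in each library, with earlier results of these data known. Microglia were taken from the midbrain (Mdb) and the striatum (Str) of untreated C57BL/6 male mice aged 3 months, with no transgene or treatment in any group. The animals were perfused with cold saline, the tissue was digested with papain, and cells carrying CD11b were pulled out of the suspension with magnetic beads. Poly-A RNA of each suspension was sequenced in bulk from the 3′ ends of transcripts (MARS-seq). The pilot cohort gave 2 libraries per region, and the second cohort gave 2 libraries per region whose labels agree on the region (replicates 1 and 3 in the titles of each region). In a further 2 libraries of the second cohort the labels name both regions, so these were placed in no group. The study took both regions from the same mice, but the labels of the second cohort disagree on which libraries share a mouse. The fits therefore treat libraries as unpaired, and the p-values measure the spread between these libraries, part of which may be technical.

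Classical monocytes leave the bone marrow through the chemokine receptor Ccr2, circulate in blood, carry high surface Ly6C and enter tissue when called by chemokines. Microglia are the resident macrophages of the brain parenchyma and are made from yolk sac progenitors. Monocytes, neutrophils and the macrophages of the meninges and vessel walls carry CD11b too, so the beads do not separate them from microglia. None of the 10 genes is made by monocytes alone. Neutrophils also make Chil3, Anxa1 and S100a4, some lymphocytes carry Ly6C, and fibroblasts and glial precursors secrete matrix proteins such as versican and fibronectin.

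In the healthy midbrain 7 of the 10 monocyte markers were higher than in the striatum in both cohorts, and Vcan, Ms4a6c and S100a4 did not pass in both. Levels are given in CPM, read counts relative to the library total after scaling each library with TMM factors, and differences as the log2 fold change of midbrain over striatum. All 10 genes had a positive log2 fold change in each cohort, with a median of 1.66 in the pilot cohort and 2.86 in the second, against 0.02 over the 14972 genes tested in the pilot cohort and -0.00 over the 13486 tested in the second. Within a cohort a gene was called when its unadjusted limma p was under 0.01. In the pilot cohort 7 of the 10 were called higher in the midbrain (Ly6c2, Plac8, Fn1, Chil3, Anxa1, Ms4a4c and Fxyd5), where 2.09% of all genes tested were called in that direction. In the second cohort 8 of the 10 were called higher, where 2.88% of all genes were, and the 7 genes of the pilot cohort were among them. A joint fit over the 8 libraries, with cohort as a covariate and a Benjamini-Hochberg adjusted p under 0.05, called 4 of the 10 (Ly6c2, Anxa1, Ms4a4c and Fxyd5), where 0.975% of all genes were called higher. By flow cytometry the study found nearly all of the purified cells to be microglia and a small share to be infiltrated myeloid cells. It did not give that share for each region. Since RNA was measured in bulk, more monocytes in a suspension and more of these transcripts per cell cannot be told apart. Where the cells lay, in tissue, vessels or meninges, was not measured.

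For the 4 genes called in the joint fit, the 250 bases before their transcription starts are shown. The sequences are those of RefSeq on build GRCm38.p6, where 9 of the 10 genes had an entry and Fn1 had none. They run 5′ to 3′ along the coding strand. Capitals mark matches, on either strand, to 4 motifs: GAGGAA, the core bound by the myeloid factor PU.1, TTGCNNAA, a site form of the C/EBP factors, TATAAA, the TATA box, and the interferon response element in its consensus form. The windows lie at chr15:75111972-75112221 for Ly6c2, chr19:20390672-20390921 for Anxa1 and chr7:31042332-31042581 for Fxyd5, all on the minus strand, and at chr19:11407411-11407660 on the plus strand for Ms4a4c. The windows of Ms4a4c and Anxa1 lie inside the gene as the count files place it, since their RefSeq starts are 2891 and 273 bases from the starts in those files, and 150 bases of the Fxyd5 window do.
Ly6c2: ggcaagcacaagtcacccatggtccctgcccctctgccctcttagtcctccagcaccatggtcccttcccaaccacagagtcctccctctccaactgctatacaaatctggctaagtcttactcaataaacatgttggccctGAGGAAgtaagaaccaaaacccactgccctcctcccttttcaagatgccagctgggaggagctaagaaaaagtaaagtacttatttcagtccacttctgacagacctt
Anxa1: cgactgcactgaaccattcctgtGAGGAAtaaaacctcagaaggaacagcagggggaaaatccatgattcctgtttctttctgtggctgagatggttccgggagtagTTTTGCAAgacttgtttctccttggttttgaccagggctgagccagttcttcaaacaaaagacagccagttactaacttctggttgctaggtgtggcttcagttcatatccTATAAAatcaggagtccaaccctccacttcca
Ms4a4c: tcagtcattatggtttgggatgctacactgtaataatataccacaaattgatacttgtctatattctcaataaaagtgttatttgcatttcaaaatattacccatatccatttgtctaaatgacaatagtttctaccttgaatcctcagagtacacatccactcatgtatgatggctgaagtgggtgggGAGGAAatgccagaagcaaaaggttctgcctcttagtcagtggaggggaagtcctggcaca
Fxyd5: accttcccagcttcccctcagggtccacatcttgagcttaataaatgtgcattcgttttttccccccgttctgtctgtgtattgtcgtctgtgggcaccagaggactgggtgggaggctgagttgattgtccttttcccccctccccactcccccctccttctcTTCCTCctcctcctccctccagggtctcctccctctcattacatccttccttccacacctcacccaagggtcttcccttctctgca

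GAGGAA stood in each of the 4 windows printed, on the lower strand (TTCCTC) in Fxyd5, and no match in these windows overlapped another. Over the 9 genes with a window it was found in 5, the other being Plac8, and it was found in 23.3% of all 32851 windows of this length. The TATA box was found in the windows of Anxa1 and S100a4, 2 of 9, against 12.4% of all windows. The C/EBP form was found in 1 of 9, Anxa1, against 9.56%, and the interferon form in none of the 9, against 2.98%. These matches describe letters only and do not show that a factor binds there.

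The surface proteins come first. Ly6c2 encodes the Ly6C antigen by which classical monocytes are sorted, and in the files it lies on chromosome 15 from 75108158 to 75111970 (GRCm38, minus strand). Its level was 38.9 and 34.4 CPM in the pilot midbrain libraries and 8.31 and 12.4 CPM in the pilot striatum libraries. In the second cohort it was 305 and 89.2 CPM in the midbrain (replicates 1 and 3) and 28.3 and 17.5 CPM in the striatum. Both midbrain libraries lay above both striatum libraries in each cohort. The log2 fold change was 1.80 (SE 0.29) in the pilot cohort, 2.68 (SE 0.66) in the second and 2.24 (SE 0.46) in the joint limma fit, with an adjusted p of 0.0442.

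Ms4a4c and Ms4a6c belong to a cluster of genes for proteins that span the membrane 4 times, on chromosome 19, and both are transcribed in monocytes and macrophages. Ms4a4c (11404770 to 11427246) was at 6.13 and 9.34 CPM in the pilot midbrain against 2.83 and 1.19 CPM in the pilot striatum, and at 41.9 and 26.5 CPM in the second midbrain against 7.24 and 0 CPM in the second striatum. The groups did not overlap in either cohort. The 0 came from striatum replicate 3, the shallowest library, where 3 counts (the smallest level told from 0 here) correspond to 5.21 CPM before TMM scaling. The joint log2 fold change was 2.60 (SE 0.55, limma adjusted p = 0.0481). Ms4a6c (11469366 to 11482192) was called in the second cohort only, and the difference between the cohorts by itself was not called. In the pilot cohort its midbrain levels of 13.7 and 22.0 CPM overlapped the striatum levels of 13.6 and 20.0 CPM, with a log2 fold change of 0.04 (95% interval -0.71 to 0.78). The second cohort had it at 73.3 and 56.4 CPM in the midbrain and at 16.3 and 10.5 CPM in the striatum, which gave a log2 fold change of 2.09 (SE 0.43). Ms4a6c shares an exon with the antisense gene BE692007, and the counting did not use strand.

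Fxyd5 (dysadherin, a small membrane protein that binds the sodium pump and weakens cell adhesion) lies on chromosome 7 from 31032722 to 31042481. It was at 205 and 191 CPM in the pilot midbrain and 65.0 and 73.3 CPM in the pilot striatum. Second cohort levels were 708 and 267 CPM in the midbrain and 91.6 and 43.7 CPM in the striatum. It had the smallest p of the 10 genes in the pilot cohort, and its regions stood apart by far more than its replicates, at 198 ± 9.92 CPM against 69.2 ± 5.9 CPM (SD, n = 2). The log2 fold change was 1.52 (SE 0.18) in the pilot cohort, 2.54 (SE 0.50) in the second and 1.96 (SE 0.32) in the joint fit, with an limma adjusted p of 0.021.

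**Figure D1:**
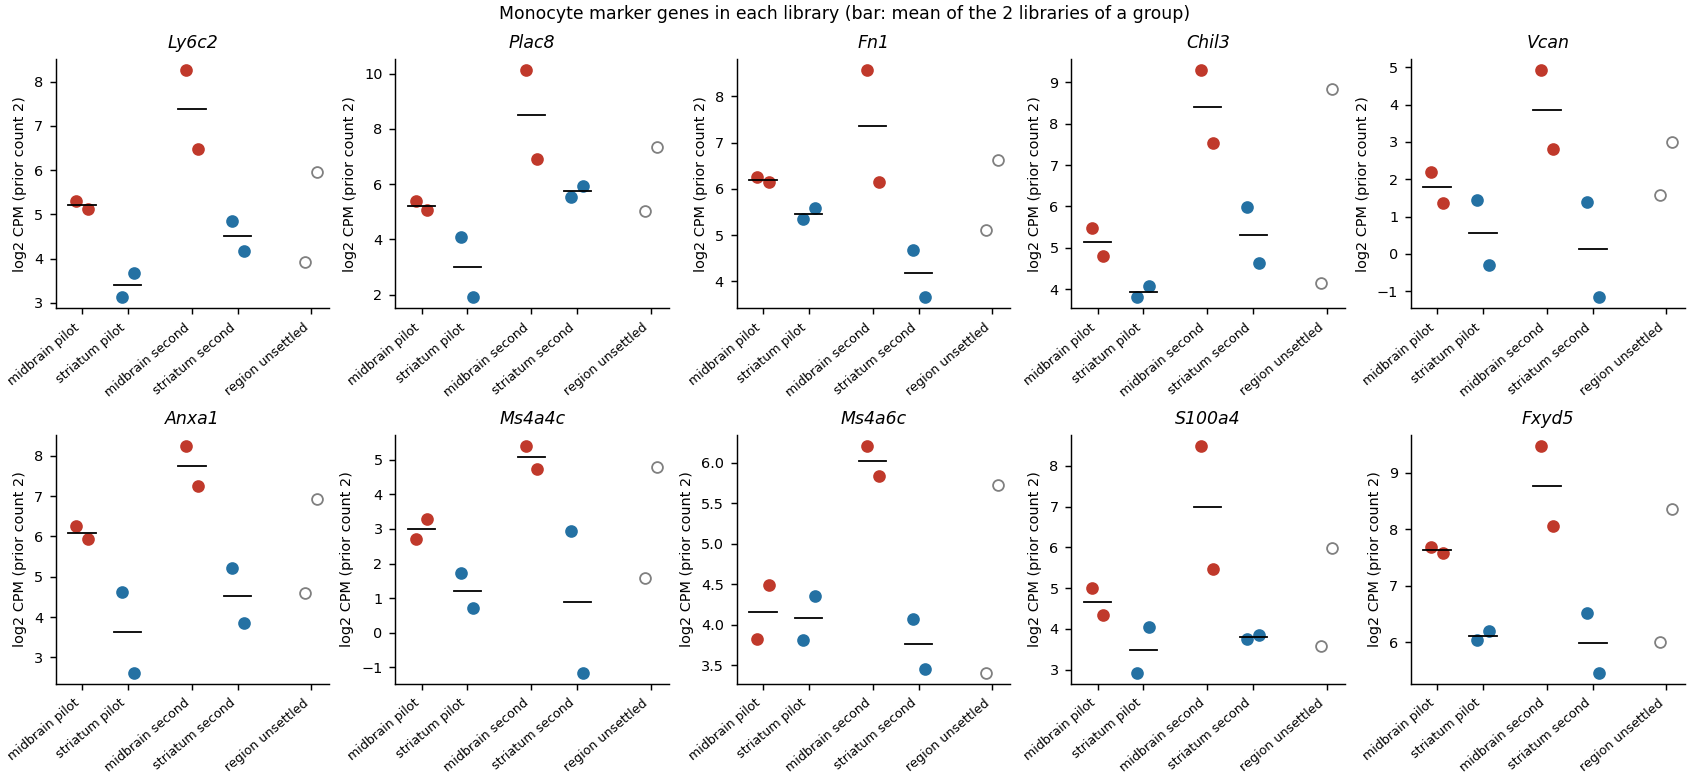
Level of each of the 10 genes (y axis, log2 CPM with a prior count of 2) in each library, by region and cohort (x axis), with red for midbrain, blue for striatum and open circles for the 2 libraries whose labels name both regions (left, title Mdb 2, and right, title Str 2). Bars are means of the 2 libraries of a group, and replicate 1 of the second midbrain group, the left red point, is the highest of all libraries in each of the 10 genes.

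The secreted products include 2 matrix proteins and a lectin. Fn1 encodes fibronectin, a matrix and plasma glycoprotein that cells hold through integrins, and lies on chromosome 1 from 71585520 to 71653200. It was at 76.0 and 70.3 CPM in the pilot midbrain and 40.4 and 47.4 CPM in the pilot striatum. The second midbrain libraries had 378 and 70.3 CPM and the second striatum libraries 25.4 and 12.2 CPM. The regions did not overlap in either cohort, but replicate 3 of the second midbrain stood no higher than the pilot midbrain libraries. The log2 fold change was 0.73 (SE 0.20) in the pilot cohort and 2.90 (SE 0.89) in the second. The joint estimate of 1.48 (SE 0.56) had an limma adjusted p of 0.247.

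Vcan encodes versican, a large chondroitin sulfate proteoglycan that monocytes secrete, and lies on chromosome 13 from 89655312 to 89742509. It was the least counted of the 10, with 25 and 12 counts (4.14 and 2.11 CPM) in the pilot midbrain libraries and 12 and 3 counts (2.27 and 0.357 CPM) in the pilot striatum libraries, which overlap. In the second cohort it was at 29.8 and 6.56 CPM in the midbrain, and at 2.17 CPM and 0 in the striatum. None of the 3 voom fits called it, with a pilot log2 fold change of 1.85 (95% interval -0.07 to 3.76) and a second cohort log2 fold change of 3.20 (0.64 to 5.75). The joint value of 2.52 had a limma adjusted p of 0.175, and it passed with DESeq2 (adjusted p = 0.0356) and with a block for the replicate number (limma adjusted p = 0.0392).

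Chil3 encodes Ym1, a chitinase-like lectin without chitinase activity that monocytes, neutrophils and alternatively activated macrophages secrete. It lies on chromosome 3 from 106147554 to 106167564. Its levels were 44.4 and 27.3 CPM in the pilot midbrain and 13.6 and 16.4 CPM in the pilot striatum. Second cohort levels were 625 and 186 CPM in the midbrain and 63.0 and 24.5 CPM in the striatum. The regions did not overlap in either cohort. The log2 fold changes were 1.21 (SE 0.31) and 2.78 (SE 0.62), and the joint value of 2.05 (SE 0.49) missed the threshold with an limma adjusted p of 0.0769.

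The last 3 genes encode proteins that act mainly inside the cell or on leaving it. Anxa1 encodes annexin A1, a phospholipid-binding protein that glucocorticoids induce and that restrains leukocyte entry through formyl peptide receptors, and lies on chromosome 19 from 20373428 to 20390944. It was at 76.2 and 60.4 CPM in the pilot midbrain against 24.4 and 5.71 CPM in the pilot striatum, and at 303 and 153 CPM in the second midbrain against 36.6 and 14 CPM in the second striatum. No region overlapped the other in either cohort, with a log2 fold change of 2.68 (SE 0.47) in the pilot cohort and 2.86 (SE 0.50) in the second. Anxa1 had the largest joint log2 fold change of the 10, 2.80 (SE 0.41), and the smallest adjusted limma p, 0.0181.

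Plac8 encodes a small cysteine-rich protein abundant in myeloid cells and lies on chromosome 5 from 100553725 to 100572245. It was at 41.2 and 32.8 CPM in the pilot midbrain and 16.6 and 3.33 CPM in the pilot striatum. The second midbrain libraries reached 1114 and 121 CPM and the second striatum libraries 46.4 and 61.2 CPM. The regions did not overlap, yet the 2 second midbrain libraries themselves differed by 9.22-fold, more than for any of the other 9 genes, so that their mean of 617 CPM had an SD of 702 (n = 2). The log2 fold change was 2.48 (SE 0.53) in the pilot cohort, 2.85 (SE 0.91) in the second and 2.75 (SE 0.76) in the joint fit, with an limma adjusted p of 0.116.

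S100a4 encodes a calcium-binding protein that binds non-muscle myosin and goes with cell motility, and lies on chromosome 3 from 90603771 to 90606045. It was at 31.5 and 19.9 CPM in the pilot midbrain and 7.18 and 16.2 CPM in the pilot striatum. Second cohort levels were 359 and 44.0 CPM in the midbrain and 13 and 14 CPM in the striatum. Although the regions did not overlap, neither cohort passed the threshold, with log2 fold changes of 1.13 (SE 0.40) and 3.20 (SE 1.12). The second midbrain libraries differed by 8.15-fold, while the second striatum libraries, which held only 36 and 8 counts of it, differed by 1.07-fold.

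**Figure D2:**
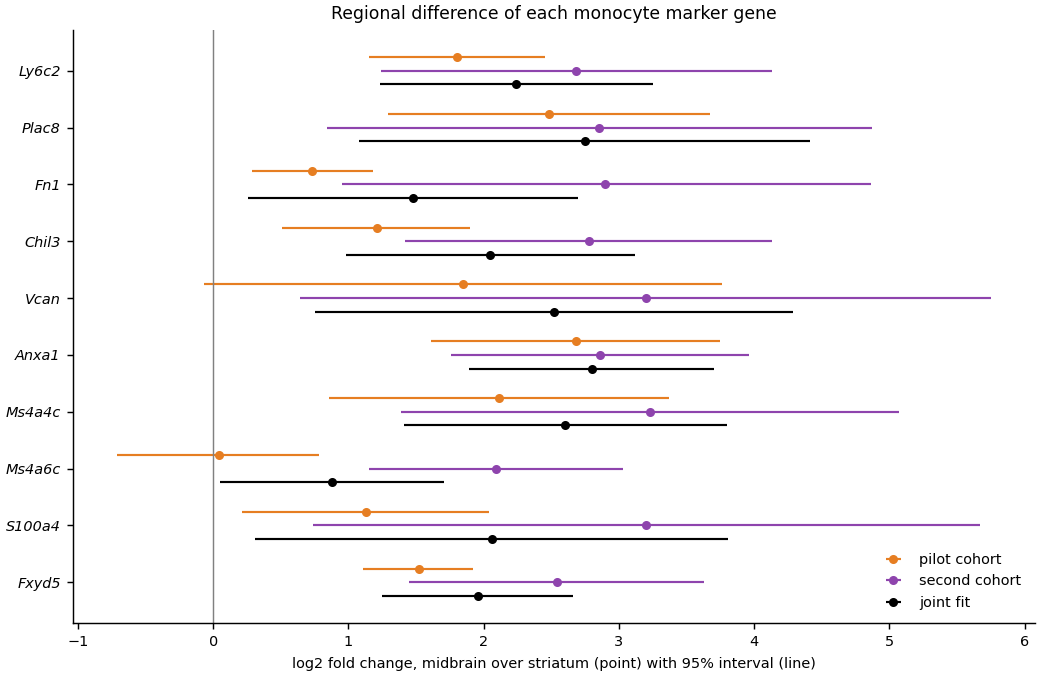
Log2 fold change of midbrain over striatum (x axis) for each of the 10 genes (y axis), with its 95% interval from limma, in the pilot cohort (orange), the second cohort (purple) and the joint fit (black). All 30 points lie above 0, the purple point lies right of the orange one in each gene, and the intervals that reach 0 are those of Vcan and Ms4a6c in the pilot cohort.

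Counted without a model, both midbrain libraries lay above both striatum libraries in 8 of the 10 genes in the pilot cohort, the exceptions being Vcan and Ms4a6c, where this held for 20.2% of all genes tested. In the second cohort it held for 10 of the 10, where it held for 24.5% of all genes. Summed over the 10 genes, the level was 537 and 469 CPM in the pilot midbrain and 194 and 196 CPM in the pilot striatum. It was 3936 and 1019 CPM in the second midbrain and 330 and 198 CPM in the second striatum. As a share of a library's counts, the 10 genes ranged from 0.0195% in striatum replicate 2 of the pilot cohort to 0.358% in midbrain replicate 1 of the second.

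Levels in the second cohort were above those of the pilot cohort for 6 of the 10 genes in the joint fit. The cohort term of the joint fit (second over pilot, region taken out) was positive for 10 of the 10 genes, with a median of 1.86 against -0.02 over all genes. It passed an adjusted p of 0.05 in limma for 6 of them, where 4.71% of all genes passed upward: Ly6c2 (1.92), Plac8 (3.19), Chil3 (2.79), Anxa1 (1.59), Ms4a4c (1.93) and Ms4a6c (1.25). Fn1 had the smallest cohort term, 0.53 (95% interval -0.63 to 1.69). In the striatum alone the mean was lower in the second cohort for 4 genes, at 18.8 against 43.9 CPM for Fn1, 1.09 against 1.31 CPM for Vcan, 13.4 against 16.8 CPM for Ms4a6c and 67.7 against 69.2 CPM for Fxyd5. The mice, their preparation and the sequencing differ together between cohorts and cannot be told apart.

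Every one of the 10 genes also had the larger regional log2 fold change in the second cohort with all libraries, but the difference between cohorts was tested by itself and was called in none of them. Without midbrain replicate 1 of the second cohort this held for 8 of the 10, since the second cohort's value fell to 1.27 for Plac8 and to 2.38 for Anxa1, under their pilot values, and to 1.68 for Fn1 and 1.72 for S100a4. With limma's interaction term no gene of 14053 passed an adjusted p of 0.05, and 5.49% of all genes had an unadjusted p under 0.05. Of the 10 genes only Ms4a6c did, where the second cohort's log2 fold change exceeded the pilot's by 2.02 (SE 0.55, limma adjusted p = 0.86). For Anxa1 the difference between the cohorts was 0.13, with an interval from -1.82 to 2.08.

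Ranked by group means, the second midbrain came first for all 10 genes, and its lowest library lay above the highest of the next group in 9 of them, Fn1 being the exception. The pilot midbrain came next in 8 genes. For Plac8 and Chil3 the second striatum stood in that place, above the pilot midbrain in Plac8 without overlap (46.4 and 61.2 against 41.2 and 32.8 CPM) and overlapping it in Chil3. The 2 striatum groups overlapped each other in 6 of the 10 genes (Vcan, Anxa1, Ms4a4c, Ms4a6c, S100a4 and Fxyd5) wherever they stood last, so their order is not resolved there. The pilot midbrain overlapped the group below it in Vcan, Ms4a4c and Ms4a6c. How many of all genes stay apart or overlap in this way across cohorts was not counted, so these counts describe the 10 genes only.

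Midbrain replicate 1 of the second cohort was the highest library for each of the 10 genes, from 1.3-fold over replicate 3 for Ms4a6c to 9.22-fold for Plac8. Without it, the 10 genes kept positive joint log2 fold changes, which fell for each of them, to 1.80 for Ly6c2, 1.90 for Plac8, 0.96 for Fn1, 1.49 for Chil3, 2.57 for Anxa1 and 1.61 for Fxyd5. The joint fit without it again called 4 of the 10, and 137 of 13712 genes passed in either direction. Chil3 (limma adjusted p = 0.0313) was among the 4 in place of Ms4a4c (limma adjusted p = 0.0615). The joint count was more dependent on other libraries. It was 0 without pilot midbrain replicate 1, 2 without pilot midbrain replicate 2, 1 without pilot striatum replicate 1, 0 without second striatum replicate 1 and 0 without second striatum replicate 3, and in those fits 0, 79, 9, 0 and 3 of all genes passed in either direction, against 149 with every library. Leaving out striatum replicate 3, the shallowest library with 575709 counts, left 1 striatum library in the second cohort. That cohort's log2 fold changes then ran from 1.95 for Ms4a6c to 3.23 for S100a4.

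The title and the second label of each of the 2 unplaced libraries name opposite regions. Placing them by title took the number called in the second cohort and in the joint fit to 0 and the median joint log2 fold change to 1.30. Over all genes 132 of 13254 then passed in the second cohort and 0 of 13814 in the joint fit, in either direction. Placing them by the second label gave 9 and 6 called and a median of 2.21, with 692 and 440 of all genes passing.

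Depth differed between libraries, from 575709 to 8463782 counts, and the markers of the intended cell were abundant in each library. The summed level of 12 microglia genes, P2ry12, Tmem119 and Siglech among them, ran from 11986 to 13724 CPM in the pilot midbrain, 17407 to 19037 CPM in the pilot striatum, 13620 to 15650 CPM in the second midbrain and 19196 to 24749 CPM in the second striatum, with no overlap of the regions. All 12 had a negative joint log2 fold change, with a median of -0.62, and Siglech (-0.84) and Olfml3 (-0.62) passed the joint threshold.

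Of 24 other genes typical of classical monocytes, 5 were called higher in the midbrain. All 24 were tested in the joint fit and had a positive log2 fold change, from 0.26 for Ly6c1 upward, with a median of 1.62 against 0.04 over all 14053 genes. The genes called were Ccr2 (2.14), the receptor by which monocytes leave the marrow, Ifitm6 (2.04), a membrane protein of the interferon-induced family, F13a1 (1.79), coagulation factor XIII A, Lyz2 (1.61), lysozyme, and Emb (1.61), an adhesion protein. Within the cohorts 14 of 23 and 17 of 24 were called higher. Their summed level was 3767 to 4259 CPM in the pilot midbrain against 1757 to 2493 CPM in the pilot striatum, and 8248 to 17501 CPM in the second midbrain against 1968 to 2820 CPM in the second striatum.

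Some genes of other leukocytes that CD11b beads can hold were also called higher in the midbrain, and their part in the levels of the 10 genes was not tested. Of 14 neutrophil genes 12 were tested and 6 were called higher in the joint fit, led by Retnlg (3.24), S100a9 (3.08), S100a8 (2.82) and Mmp9 (2.22), while Csf3r had a value of -0.26. Their sum was 1198 to 1549 CPM in the pilot midbrain, 901 to 953 CPM in the pilot striatum, 4422 to 6815 CPM in the second midbrain and 980 to 1075 CPM in the second striatum. Of 10 border macrophage genes 9 were tested and 5 were called, led by Pf4 (2.11), Lyve1 (2.09), Cd163 (1.80) and Mrc1 (1.6), with Folr2 at or under 3 counts in every library. Their sum was 1384 to 1661 against 552 to 844 CPM in the pilot cohort and 1970 to 2572 against 315 to 318 CPM in the second. Of 11 genes of non-classical monocytes, the patrolling kind, 1 was called, the nuclear receptor Nr4a1 (0.95), and the median was 0.94.

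**Figure D3:**
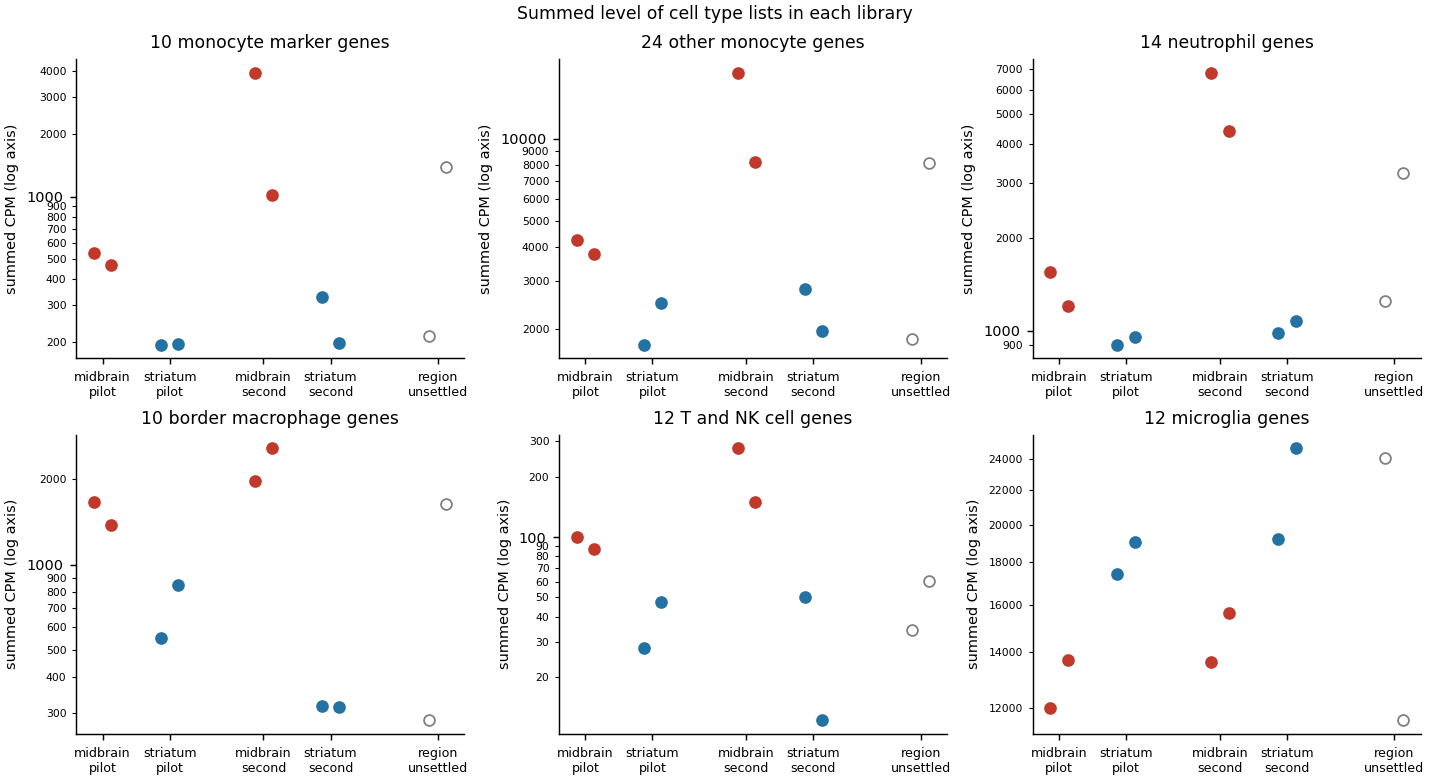
Summed CPM (y axis, log scale, a separate range in each panel) of the 10 monocyte marker genes and of 5 other lists of cell type genes in each library, by region and cohort (x axis), with red for midbrain, blue for striatum and open circles for the 2 libraries whose labels name both regions. The red points lie above the blue points of the same cohort in every panel except that of the microglia genes, where they lie below.

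Of the lymphoid and non-myeloid lists, that of T and NK cells alone had a gene called higher in the joint fit. Of 12 T and NK cell genes 7 were tested and 1 was called, the cytotoxic granule gene Nkg7 (2.01), where 0.975% of all genes were called higher. All 7 were positive, with a median of 1.4. Within the pilot cohort 2 of 8 tested were called higher and within the second 4 of 8, where 2.09% and 2.88% of all genes were. The list summed to 87.2 to 100 against 28.0 to 47.4 CPM in the pilot cohort and 150 to 277 against 12.2 to 50 CPM in the second, with the regions apart in both. Cd3e, a chain of the T cell receptor complex, was the 1 gene of the list at or under 3 counts in every library. Of 5 B cell genes 1 was tested and none was called, with Ms4a1 and Pax5 at or under 3 counts throughout. Among lists of cells that make fibronectin or versican, 4 of 6 fibroblast genes were tested, with a median of 1.48, and 6 of 6 oligodendrocyte precursor genes, with a median of 0.31. None of these passed in the joint fit. Within the pilot cohort 3 fibroblast genes and 1 oligodendrocyte precursor gene were called higher, and within the second cohort 1 and 0. Of all genes, 2.09% and 2.88% were called higher in those cohorts. The fibroblast genes summed to 82.4 to 99.0 against 17.4 to 46.7 CPM in the pilot cohort, and to 51.0 to 130 against 10.5 to 76.8 CPM in the second, where the regions overlapped. Of 8 dendritic cell genes 7 were tested, with a median of 1.58 and 6 positive. None was called higher in the joint fit, while 2 were within the second cohort, and the gene called lower was Siglech, which is also among the microglia genes. The 6 endothelial and 5 astrocyte genes tested gave none called, with medians of 0.04 and 0.51.

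The markers with close relatives were set beside their gene families. In the Ly6 family 8 of 10 genes were tested and Ly6c2 was the only one called. Its neighbour Ly6c1, made by endothelium and some leukocytes, had a joint log2 fold change of 0.26 (SE 0.34), with levels of 66.4 and 103 CPM in the pilot midbrain and 80.7 and 86.4 CPM in the pilot striatum. In the second cohort it was at 33.8 and 9.13 against 4.71 and 10.5 CPM, a log2 fold change of 1.53 (SE 0.80). The transcripts of Ly6c2 hold, in their last 500 bases, 34.6% of stretches of 50 bases that also occur in other genes, Ly6c1 among them. Reads mapping to several places were not counted, so the level of Ly6c2 may leave out reads from such stretches. In the Ms4a family 8 of 18 genes were tested and Ms4a4c was the only one called, while 6 genes stayed at or under 3 counts in every library. Of the 8 tested, 7 had a positive joint log2 fold change, with a median of 1.34. Ms4a7 had 1.26 (SE 0.28, limma adjusted p = 0.0601) and was called higher within both cohorts, while Ms4a6b had -0.05 (SE 0.31). Of such stretches of Ms4a6c, 50.9% also occur in other genes, Ms4a6b and BE692007 among them.

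Of the 7 chitinase-like genes 3 were tested and none was called, with Chil4, whose end sequence overlaps that of Chil3 (17.8% of stretches shared), at 0 in every library. Of 12 annexins 8 were tested and Anxa1 and Anxa5 (0.96), the phosphatidylserine binder, were called. Of the 8, 6 were positive, with a median of 0.46. Anxa2 (1.54, SE 0.39, limma adjusted p = 0.0863) was not called in the joint fit but was called higher within both cohorts. Of 7 FXYD genes 4 were tested and Fxyd5 alone was called. The hyalectans, the proteoglycan family of versican, gave 3 of 4 tested and none called. No stretch of Plac8, Vcan, Anxa1 or Fxyd5 was shared with another gene, while 47.4% of those of S100a4 were, all with Gm42674, which overlaps it on the same strand. Fn1 shares an exon with Apol7d and Ms4a4c with Gm5692, and reads lying in more than 1 gene were not counted.

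**Figure D4:**
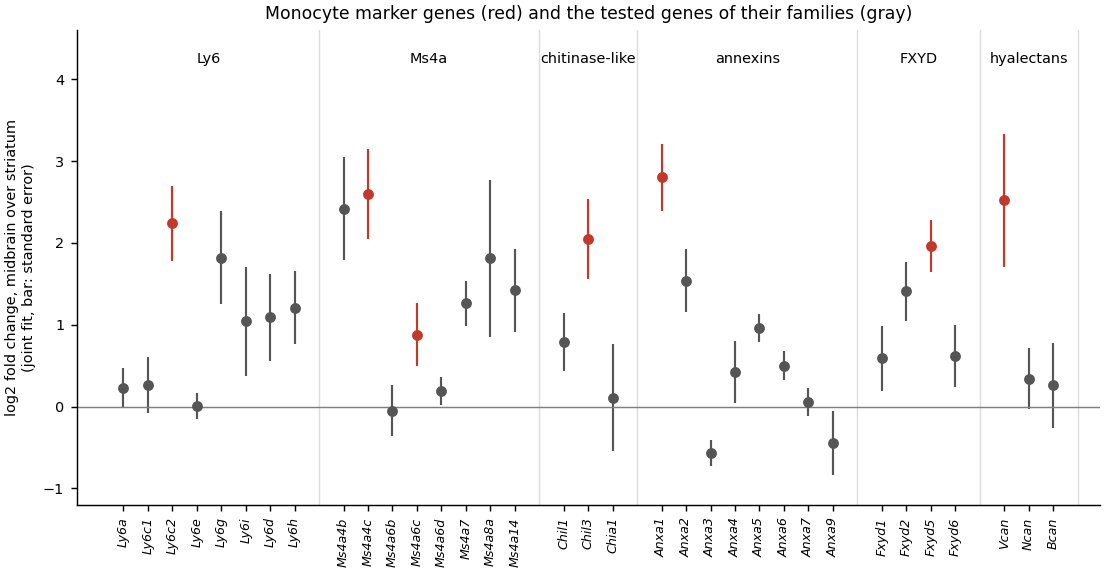
Joint log2 fold change of midbrain over striatum (y axis, point, with 1 standard error as the bar) for the tested genes of the families of Ly6c2, Ms4a4c and Ms4a6c, Chil3, Anxa1, Fxyd5 and Vcan (x axis), with the 7 family members that belong to the 10 monocyte markers in red. Ly6c2, Chil3, Anxa1, Ms4a4c, Fxyd5 and Vcan have the highest value of their family, and Ms4a6c stands below several of its relatives.

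Receptors and partners of the gene products were counted in the same joint fit. Monocyte recruitment genes gave 3 of 9 called higher: Ccr1 (2.17), a chemokine receptor, Ccr2 (2.14) and Ccl12 (2.09), a mouse ligand of Ccr2. Of 3 formyl peptide receptor genes for annexin A1, 2 were tested and none was called, and Fpr3 was at 0 in every library. Both estimates were large, 4.80 (SE 1.03, limma adjusted p = 0.0531) for Fpr1 and 1.92 (SE 0.46, limma adjusted p = 0.0782) for Fpr2. Fpr1 was at 1.51 and 0 CPM in the pilot striatum and at 0 in both second striatum libraries, so the size of its estimate rests on libraries at 0. None of 7 tested integrin genes that bind fibronectin, 4 of 5 tested partners of versican, 3 partners of S100a4 or 6 sodium pump subunits was called.

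The genes whose pattern was most like that of the 10 were found by the distance between centred log2 CPM profiles over the 8 placed libraries, among 14053 genes. Among genes outside the 10, small distances from the median profile of the 10 were those of Cd40 (0.529), a costimulatory receptor, Ifitm2 (0.653), an interferon-induced membrane protein, Fcho1 (0.692), an endocytosis factor, and Crip1 (0.711), a LIM domain protein. The median distance over all genes was 3.63. Of the 10 themselves, Chil3 was nearest (0.498) and Fxyd5 came next (0.573), while Ms4a4c lay farthest (2.75).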

How the data were processed

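Microglia from midbrain and striatum of healthy mice were profiled in 10 bulk libraries. The authors aligned reads to GRCm38 with STAR 2.5.3a and counted exonic reads with featureCounts 1.6.0 on Gencode M17, and deposited raw counts of 53715 genes per library. Per the file headers the counting used no strand and left out reads lying in more than one gene or mapping to several places. Symbols were matched for 53620 identifiers. Totals of the placed libraries ran from 575709 to 8463782 counts, so low genes are least certain in the shallowest. The level of 3 counts was taken as the floor, and it covers counting error only.

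Groups follow the titles, and 2 libraries whose labels name both regions were left out of the comparisons. As in the study's methods, TMM scaling (edgeR 4.0.16) was followed by voom and limma 3.58.1 (R 4.3.3) on the whole table. A gene was left out when over 50% of a fit's libraries had fewer than 6 of its counts. All 10 genes passed this filter in the 2 cohort fits and the joint fit. The threshold was an unadjusted p under 0.01 within a cohort and a Benjamini-Hochberg adjusted p under 0.05 in the joint fit. Log2 CPM used a prior count of 2. The procedure was tested on simulated data.

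The 10 genes, the marker lists and the families were chosen with earlier results of these data known. From each list the text names up to 4 genes with the largest joint change among those passing, and genes at or under the floor. Emb among the monocyte genes, and Csf3r, Ly6c1, Ms4a6b, Ms4a7, Anxa2, Fpr1 and Fpr2, were singled out with their values in view. The 5 genes of most similar pattern were those with the smallest Euclidean distance to the median profile, centred within cohort, and 1 of them is not reported here. The alternatives tried other tests (quasi-likelihood in edgeR, and DESeq2 1.42.0), scaling to library size, no filter or one of 10 counts in every library, a block for the replicate number, thinning to equal depth, other thresholds, omission of each library, and both placements of the unplaced libraries.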

Additional observations from a re-analysis of the deposited data

Results flagged for a closer look

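The 2 libraries of the second cohort that entered no comparison differed in the summed level of the 10 genes. The library titled Mdb 2, whose other label names the striatum, held 213 CPM summed over the 10 genes. The library titled Str 2, whose other label names the midbrain, held 1383 CPM. Among placed libraries of the second cohort the sum was 3936 and 1019 CPM in the midbrain and 330 and 198 CPM in the striatum. Each of the 10 genes was higher in the library titled Str 2, for example Chil3 at 462 against 17.2 CPM, Ms4a4c at 27.4 against 2.55 CPM and Fxyd5 at 327 against 63.7 CPM. These are 2 single libraries, so no test was made, and their region was not settled from these values.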

How the results depend on the processing

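The joint log2 fold changes stayed positive in every alternative for the genes it tested, which were 9 of the 10 after thinning (not Vcan) and 4 with at least 10 counts in every library. Of 83 such values in alternatives other than leaving out a library, 65 stayed on the same side of the threshold, 6 lost it and 12 gained it. Of 80 that left out 1 library, 58, 19 and 3 did. The number of the 10 genes called moved more. In the joint fit it was 4, where 149 of 14053 genes passed, and it was 7 with DESeq2, where 544 of 14053 passed. It was 7 with an unadjusted p under 0.01, a threshold at which the whole table was not counted for the joint fit. With at least 10 counts in every library it was 1, where 4 of the 10 were tested and 57 of 7037 genes passed. It was 0 with the unplaced libraries by title, which also gave a median of 1.30 in place of 2.15. Leaving out 1 library gave 0 to 6 in the joint fit, 5 to 8 in the pilot cohort and 4 to 10 in the second. The 8 of the pilot cohort came without striatum replicate 1, where 2445 of 14571 genes were called in place of 395 of 14972, and the 10 of the second without midbrain replicate 3, where 1240 of 12230 were called in place of 468 of 13486. In the second cohort the number was 8, and it was 3 with at least 10 counts in every library, where 4 were tested and 204 of 7043 genes passed. It was 0 by title, where 132 of 13254 genes passed. It was 1 at an adjusted p under 0.05, a threshold at which the whole table was not counted for this cohort. In the pilot cohort an adjusted p under 0.05 left 0 of 7, also without a count over all genes. There 8 of the 10 genes had an unadjusted limma p under 0.05, as did 1626 of all 14972 genes tested. At the unadjusted threshold edgeR called 7 and DESeq2 5 in that cohort, with 400 and 384 of all 14972 genes. The cause of these changes was not tested. Under the stricter filter fewer of the 10 genes were tested. Ly6c2 was still tested there in the joint fit and missed the threshold (limma adjusted p = 0.0633).

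With the replicate number of the titles as a replicate block the joint fit called 7, and 308 of 14053 genes passed in place of 149. Same-numbered libraries did not deviate together over 14053 genes (r = -0.034 in the pilot cohort and 0.0788 in the second), and other labels of the second cohort pair the libraries differently, so the numbers were not taken as pairs. Depth limits the low genes most, Vcan and Ms4a4c, which were at 0 in the shallowest library.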
